A study of Rattus norvegicus with 38 samples.

Results

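Immediate early response genes are switched on within minutes of a stimulus and need no new protein synthesis, because the transcription factors that drive them are already in the cell. The set described here was named by symbol: Fos, Jun, Junb and Atf3, which encode subunits of AP-1 and ATF dimers; Egr1, a zinc finger transcription factor; Nr4a1, an orphan nuclear receptor; Ier2, a nuclear protein of the early response; Dusp1, a phosphatase that switches off MAP kinases; Sik1, a kinase that holds back CREB coactivators; and Btg2, an antiproliferative protein. Every probeset annotated to a current or former symbol of these 10 genes was taken. Of the 10 genes, 9 were measured, by 14 of the 15866 probesets tested on the heart arrays and 14 of the 31042 tested on the arrays of peripheral blood mononuclear cells (PBMC). No probeset is listed for Btg2 in the annotation used here. In the heart, this response is known to follow stretch, ischemia and reperfusion, and it can also be set off by handling of tissue and cells.

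The 38 samples came from rats of the Dark Agouti (DA) and Brown Norway (BN) strains. Donor hearts were always DA, were placed in the abdomen beside the recipient's own beating heart, and were taken along with the native heart and blood on post-transplant day 6. The hearts comprised 4 native DA hearts and the 4 isografts (DA donor heart) of the same DA recipients, and 5 native BN hearts and the 5 allografts (DA donor heart) of the same BN recipients. PBMC came from 9 DA recipients of isografts, 5 BN recipients of allografts, 3 untransplanted DA rats and 3 untransplanted BN rats. A heart and its recipient carry the same number below. Because every BN recipient held an allograft and every DA recipient an isograft, the native BN and native DA hearts differ in strain and in whether the animal was rejecting a graft, and these cannot be told apart. Transplanted and untransplanted PBMC were processed in separate batches, so that transplantation and batch cannot be told apart either. The labelled tissues were checked against markers: all 9 cardiomyocyte markers measured reached the array median in at least 1 heart of each group, and all 10 T cell markers did so in each PBMC group, where 6 to 8 of 9 cardiomyocyte markers stayed below it in every sample. Median signals were 38.3 to 50.8 in hearts, 26.6 to 36.8 in PBMC of recipients and 20.2 to 23.7 in PBMC of untransplanted rats. The 3' to 5' ratio of actin probesets, a sign of RNA degradation when high, ran from 1.26 to 3.63 in hearts and from 1.08 to 2.75 in PBMC, with allograft 7 the highest.

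Promoter sequence was available from RefSeq (GRCr8) for 7 of the 10 genes: Nr4a1, Dusp1, Btg2, Egr1, Junb, Ier2 and Sik1. Motifs were searched on both strands in 300 bases a gene, from 250 before to 50 after the annotated start. All 7 windows held at least 1 copy of TGACG, the core of the cAMP response element bound by CREB and ATF proteins, which occurs in 21.2% of all 33469 promoters of that length. The full element TGACGTCA, which contains the core once on each strand, was in Dusp1, Btg2 and Ier2, and in 1.83% of all promoters. The CArG box bound by serum response factor was in Egr1, with 2 copies 105 and 83 bases before the start, and in 1.64% of all promoters. The EGR site GCGGGGGCG was in Nr4a1 and Sik1 and in 2.73% of all promoters, and TATAAA was in Junb and in 14.2%. The AP-1 site TGAGTCA was in none of the 7 windows and in 4.63% of all promoters. The 250 bases before the start are shown for the 5 genes with a promoter entry whose signals varied most closely together or differed between the heart groups, at chr18:26736828-26737077 (Egr1, plus strand), chr7:134259888-134260137 (Nr4a1, plus), chr10:17184603-17184852 (Dusp1, plus), chr19:40399123-40399372 (Ier2, plus) and chr19:40080876-40081125 (Junb, plus), with CArG boxes and TGACG cores (CGTCA on the other strand) in capitals.
Egr1: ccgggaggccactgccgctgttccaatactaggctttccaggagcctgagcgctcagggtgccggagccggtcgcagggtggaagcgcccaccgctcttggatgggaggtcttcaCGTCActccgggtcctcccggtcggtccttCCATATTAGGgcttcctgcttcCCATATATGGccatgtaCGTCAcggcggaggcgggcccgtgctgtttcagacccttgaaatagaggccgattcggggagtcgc
Nr4a1: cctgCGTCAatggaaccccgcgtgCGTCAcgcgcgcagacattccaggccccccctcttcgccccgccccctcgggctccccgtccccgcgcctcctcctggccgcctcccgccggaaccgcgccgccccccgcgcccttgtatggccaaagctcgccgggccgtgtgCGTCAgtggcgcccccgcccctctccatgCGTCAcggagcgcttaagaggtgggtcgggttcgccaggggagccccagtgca
Dusp1: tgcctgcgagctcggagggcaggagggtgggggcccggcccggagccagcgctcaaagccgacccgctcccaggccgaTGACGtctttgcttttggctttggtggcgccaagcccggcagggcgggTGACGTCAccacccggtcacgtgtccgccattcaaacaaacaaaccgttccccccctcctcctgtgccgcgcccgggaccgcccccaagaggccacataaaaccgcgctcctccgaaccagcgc
Ier2: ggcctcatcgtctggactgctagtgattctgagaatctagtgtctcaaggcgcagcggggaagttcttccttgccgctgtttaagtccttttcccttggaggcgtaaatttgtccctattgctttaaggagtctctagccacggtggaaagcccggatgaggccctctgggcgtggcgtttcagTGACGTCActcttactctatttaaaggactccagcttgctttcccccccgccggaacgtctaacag
Junb: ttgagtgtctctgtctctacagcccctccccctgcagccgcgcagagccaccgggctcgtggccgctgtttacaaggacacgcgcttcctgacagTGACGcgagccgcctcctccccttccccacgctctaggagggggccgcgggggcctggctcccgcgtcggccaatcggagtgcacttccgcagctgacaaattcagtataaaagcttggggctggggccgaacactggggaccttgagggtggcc
Egr1 is set apart among these 5 by its CArG boxes between 2 TGACG cores, Nr4a1 by 4 separate cores, and Dusp1 and Ier2 by the full palindrome. These matches are descriptions of letters in a window and not evidence of binding.

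Levels are given as signal divided by the median signal of the array ("array medians"), and are compared only within a probeset. A gene passed when limma gave it an adjusted p no higher than 0.10, with the adjustment made over every probeset of that array type. It was called if the groups also differed 3-fold or more and no fewer than 50% of the arrays in one of them had a signal of 1 array median or higher. The brightest probeset stands for a gene unless stated. In bulk tissue, fewer cells of a type and less RNA per cell cannot be told apart.

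**Figure D1:**
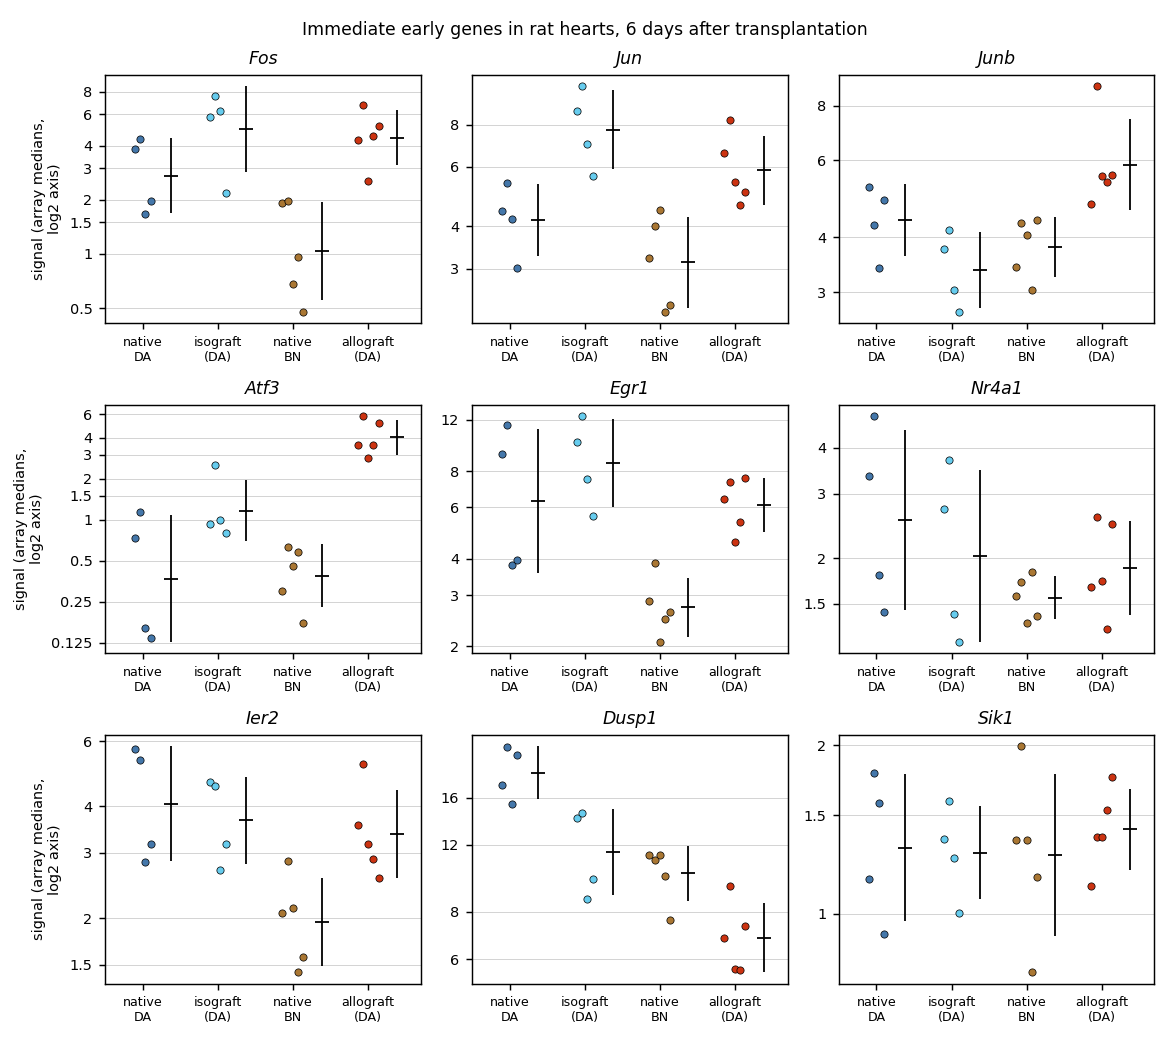
Signal of the 9 measured genes in each of the 18 hearts, in array medians on a log2 axis, with one point per heart and the mean and SD of log2 signal drawn beside each group. Atf3 was highest in the 5 allografts, at 2.86 to 5.80 array medians, and Dusp1 was highest in the 4 native DA hearts, at 15.4 to 21.8.

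The comparison of allografts with isografts is the rejection effect in DA donor hearts. The strain of the recipient, and so of its cells within the graft, differs as well, and cannot be told apart from rejection here. Of the 9 genes, Atf3 and Junb were higher in allografts, Dusp1 was lower, and 6 did not pass, against 41.4% of all probesets that passed in that comparison. The share of members that passed was close to that background. Their median log2 difference was -0.12, beside 0.02 over all probesets.

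Atf3, a stress-induced member of the ATF family that can repress inflammatory genes, had signals of 3.56, 5.80, 2.86, 3.56 and 5.15 array medians in allografts 3 to 7. In isografts 9, 11, 12 and 13 it stood at 0.930, 2.51, 0.992 and 0.800. The groups did not overlap, with isograft 11 alone close to the lowest allograft. Atf3 was 3.47-fold higher in allografts (log2 1.79, SE 0.58, adjusted p = 0.0225), and it was the only member called, against 8.86% of all probesets. In native hearts, Atf3 lay between 0.136 and 1.14 array medians, below the array median in all but native DA heart 11.

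Junb, the AP-1 subunit that often opposes Jun, had 4.77, 8.87, 5.52, 5.34 and 5.54 array medians in allografts 3 to 7. The isografts 9, 11, 12 and 13 had 3.77, 4.17, 3.03 and 2.70. Allograft 4 was the highest of the 18 hearts and every allograft exceeded every isograft. The difference was 1.74-fold (log2 0.80, SE 0.20, adjusted p = 0.00458).

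Dusp1, which dephosphorylates p38 and JNK, went the other way. Allografts 3 to 7 had 6.84, 9.35, 5.66, 5.61 and 7.34 array medians, and isografts 9, 11, 12 and 13 had 14.2, 14.6, 8.66 and 9.73. The ranges overlapped, since allograft 4 was above isograft 12. Dusp1 was 1.68-fold lower in allografts (adjusted p = 0.00790). Its weaker probeset had 0.102 to 1.76 array medians in allografts and 0.653 to 1.98 in isografts and did not pass. With both Dusp1 probesets averaged, the log2 difference was -0.62 and the adjusted p 0.189. All 3 genes still passed when any 1 of the 9 grafts was left out. Without allograft 7, whose RNA ratio was highest, the log2 differences were 1.71 for Atf3, 0.82 for Junb and -0.77 for Dusp1.

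By their brightest probesets, the other 6 genes overlapped between allografts and isografts. Fos, the partner of Jun proteins in AP-1, had 2.55 to 6.75 array medians in allografts and 2.19 to 7.54 in isografts. Jun had 4.61 to 8.29 in allografts and 5.62 to 10.4 in isografts, and Egr1 had 4.55 to 7.57 and 5.60 to 12.4. Ier2 had 2.57 to 5.22 and 2.70 to 4.65, and Nr4a1 had 1.28 to 2.59 and 1.18 to 3.71. Sik1 had 1.12 to 1.76 and 1.00 to 1.59, and its weaker probeset, which did not overlap, is described below. Of these genes, Jun and Egr1 had their highest values in isograft 11 and their lowest in an allograft.

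The cell content of the grafts moved with these differences. All 9 cardiomyocyte markers were lower in allografts, where their summed signal was 109 to 262 array medians against 569 to 962 in isografts. All 9 T cell markers rose, from a sum of 5.04 to 6.02 in isografts, with 7 of 9 markers (Cd3d, Cd3e, Cd3g and Cd8a among them) below the array median in every isograft, to 19.8 to 43.4 in allografts. All 7 monocyte and macrophage markers rose, from a sum of 48.2 to 79.4 to one of 211 to 357, as did all 4 granulocyte and 5 of 6 natural killer cell markers, while 4 of 6 fibroblast markers fell. Their part in the values of Atf3, Junb and Dusp1 was not tested.

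Of 34 other immediate early and growth response genes measured, 12 were higher and 4 lower in allografts, with a median log2 difference of 0.23. Per1, a clock gene with an early response, passed as lower, but its probeset lay below the array median in every heart and no fold is given. Cebpb, a transcription factor of acute inflammation, was 3.69-fold higher, and Myc was 2.78-fold higher. Of 18 binding partners, relatives and antagonists of the members, 10 were higher and 3 lower. Among them Dusp2, the phosphatase of the Dusp1 family found in lymphoid cells, was 5.57-fold higher, from a level below the array median in every isograft. Jdp2, a repressor that dimerizes with Jun, passed as higher with a probeset below the array median in every graft, and no fold is given. Of 20 upstream kinases and factors, 6 were higher and 5 lower, with Elk3, a partner of serum response factor, 2.15-fold higher and Mef2c 2.11-fold lower. Of 9 heat shock genes, another family that answers quickly to stress, 5 were higher and 2 lower. Hspa1a was 4.48-fold higher and Bag3 was 2.67-fold lower.

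The comparison of isografts with native DA hearts gives the effect of surgery, of the heterotopic position and of unloading without rejection. Jun was higher and Dusp1 lower in isografts, and 7 of 9 genes did not pass, beside 13.7% of all probesets that passed. Jun, the core AP-1 subunit, had 8.76, 10.4, 6.99 and 5.62 array medians in isografts 9, 11, 12 and 13. The native hearts of the same animals had 4.45, 5.39, 4.21 and 3.01. Every isograft was above every native heart, and within animals the log2 difference stayed between 0.73 and 0.98. Jun was 1.85-fold higher (log2 0.89, SE 0.27, adjusted p = 0.0547), and 0.0289 with the recipient as a block. A second Jun probeset had a log2 difference of 0.58 (SE 0.24) and did not pass (adjusted p = 0.149), and the third was higher in the isograft of 1 of 4 animals. With all 3 averaged the adjusted p was 0.162.

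Dusp1 had 17.3, 21.8, 15.4 and 20.7 array medians in native DA hearts 9, 11, 12 and 13, all above the highest isograft at 14.6. It was 1.62-fold lower in isografts (log2 -0.69, SE 0.21, adjusted p = 0.0578). Its weaker probeset overlapped between these groups and did not pass (adjusted p = 0.405). Dusp1 no longer passed when isograft 12 or 13 or native DA heart 11 or 13 was left out, with adjusted p up to 0.169, and with only these 2 groups in the fit (0.123). Jun no longer passed without isograft 9 or 11 or native DA heart 13, with adjusted p up to 0.155.

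Atf3 in native DA hearts 9, 11, 12 and 13 was 0.742, 1.14, 0.160 and 0.136 array medians, and was higher in the isograft of each of those 4 animals. The difference of 3.16-fold (log2 1.66, SE 0.61) did not pass (adjusted p = 0.104), and passed with the recipient as a block (adjusted p = 0.0677). It also passed after quantile normalization (0.0913), with signals as deposited (0.0953), with 0.25 array medians added (0.0786), and without native DA heart 9 or 11 (adjusted p down to 0.0381), and without any 1 of the other 6 hearts of these groups it did not pass (adjusted p up to 0.281). Of the 34 other early response genes, 6 were higher and none lower. Ccn2, a matrix protein induced by stretch and TGF-beta, was 5.05-fold higher, and Errfi1, an inhibitor of EGF receptors, was 4.81-fold higher. In this comparison 6 of 7 monocyte and macrophage markers and 4 of 6 fibroblast markers were higher in isografts, the latter with a sum of 183 to 241 array medians against 51.9 to 70.6. No cardiomyocyte marker of 9 passed. The part of these cells in the values of Jun, Dusp1 and Atf3 was not tested.

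The comparison of native BN with native DA hearts is the strain effect in the heart, in animals with and without a rejecting graft. Egr1, Ier2 and Dusp1 were lower in native BN hearts and no member was higher, against 2.94% of all probesets that passed and 1.46% of all that were lower. The median log2 difference of the members was -0.70, beside -0.02 over all probesets. Egr1, which relays growth factor and stretch signals, had 2.86, 3.87, 2.07, 2.48 and 2.63 array medians in native BN hearts 3 to 7. Native DA hearts 9, 11, 12 and 13 had 9.18, 11.6, 3.79 and 3.98. The DA hearts fell apart into animals 9 and 11 with high values and animals 12 and 13 near the highest BN heart. Egr1 was 2.32-fold lower in BN hearts (log2 -1.22, SE 0.33, adjusted p = 0.0784).

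Ier2 had 2.07, 2.86, 2.13, 1.43 and 1.58 array medians in native BN hearts 3 to 7, and 5.70, 5.34, 2.84 and 3.17 in native DA hearts 9, 11, 12 and 13. It was 2.08-fold lower in BN hearts (log2 -1.06, SE 0.28, adjusted p = 0.0678). The ranges met, as BN heart 4 was level with DA heart 12. Dusp1 had 11.3, 10.9, 11.3, 9.93 and 7.63 in native BN hearts 3 to 7, all below the lowest native DA heart at 15.4, and was 1.84-fold lower (log2 -0.88, SE 0.20, adjusted p = 0.0395). Fos had 0.475 to 1.98 array medians in native BN and 1.66 to 4.39 in native DA hearts, a 2.64-fold lower mean that did not pass (adjusted p = 0.167). By their brightest probesets, Jun, Junb, Nr4a1, Atf3 and Sik1 overlapped between both kinds of native heart. The third Jun probeset did not overlap, at 1.58 to 1.84 in native BN and 1.94 to 2.75 in native DA hearts. It did not pass (adjusted p = 0.229).

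These differences rested on few hearts. Egr1 and Ier2 each no longer passed when any of native BN hearts 3, 5, 6 or 7 or native DA hearts 9 or 11 was left out, with adjusted p up to 0.211 and 0.182, and with only the native hearts in the fit (0.189 and 0.153). Dusp1 no longer passed without native DA heart 11 or 13 (adjusted p up to 0.115), and with both its probesets averaged (adjusted p = 0.454). The cardiomyocyte, T cell, monocyte and macrophage, natural killer cell and fibroblast lists had no marker that passed between native hearts, while 2 of 4 endothelial markers and 1 of 4 granulocyte markers were higher and 1 of 4 red cell markers lower in BN hearts. The 3' to 5' ratio of GAPDH probesets, another sign of RNA quality, did not overlap between these groups, at 1.07 to 1.27 in native BN and 1.28 to 1.63 in native DA hearts, while that of actin did. The part of these cells and of RNA quality in the values of Egr1, Ier2 and Dusp1 was not tested. Among 34 other early response genes, Ccn1 was 2.67-fold lower and Arc 1.77-fold lower in BN hearts, and Ccn2 was 1.90-fold higher. Creb1, the factor that binds the TGACG element, was 2.15-fold higher, from a level below the array median in every native DA heart. Srf, which binds CArG boxes, was 1.49-fold higher, and Sik3, a relative of Sik1, was 2.38-fold higher.

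Across the 4 heart groups, the levels of Dusp1 ran from native DA hearts at 15.4 to 21.8 array medians through isografts at 8.66 to 14.6 and native BN hearts at 7.63 to 11.3 to allografts at 5.61 to 9.35. Isografts, native BN hearts and allografts overlapped each other, and native DA hearts stood clear of these 3 groups. By the weaker Dusp1 probeset, native DA hearts, at 1.40 to 2.70 array medians, overlapped all 3. These comparisons share the same hearts and are not independent of each other.

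**Figure D2:**
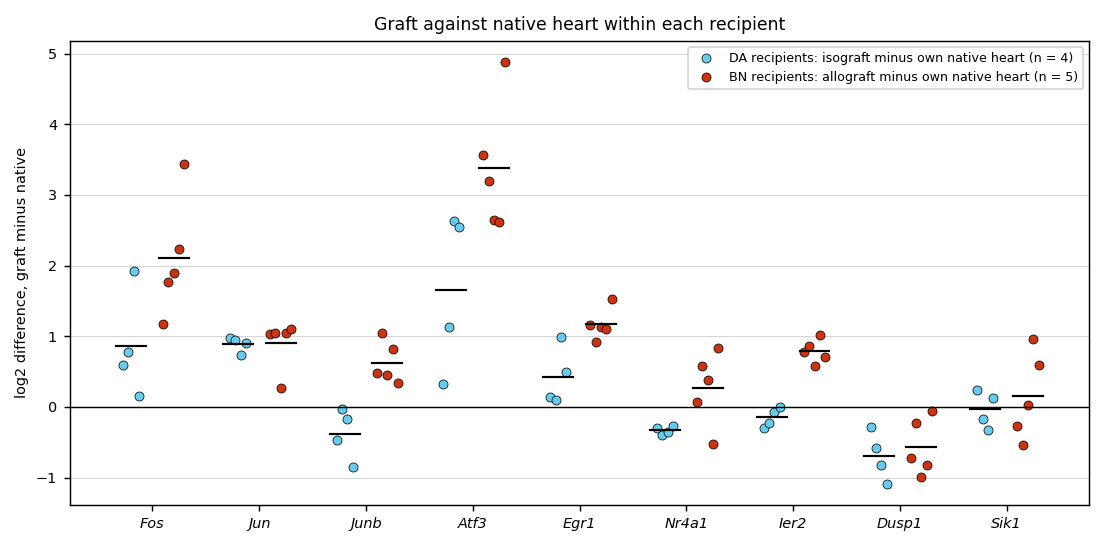
Difference in log2 signal between the transplanted and the native heart of the same animal, with one point per recipient and a short line at the group mean, for 4 DA recipients of isografts and 5 BN recipients of allografts. Junb was higher in the graft of 5 of 5 BN recipients and lower in that of 4 of 4 DA recipients. By the brightest probesets, which are drawn, Dusp1 was lower in all grafts and Jun higher in all.

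Because each graft has a native heart from the same animal, differences were also taken within recipients. In BN recipients these set DA donor tissue against BN native tissue, so that strain and rejection enter together. By their brightest probesets, Atf3, Fos, Egr1, Jun and Dusp1 went one way in all 9 recipients, the first 4 higher and Dusp1 lower in the graft. The weaker Dusp1 probeset was higher in the graft of 2 of 5 BN and 1 of 4 DA recipients. The third Jun probeset was lower in the graft of 3 of 4 DA recipients. The share of all probesets that went one way in all recipients is not given. In the 5 BN recipients, 6 of 9 genes passed as higher and 1 as lower in allografts than in native hearts, beside 49.4% of all probesets that passed. By the fit of group means, without pairing, Atf3 was 10.4-fold higher (log2 3.38, SE 0.55, adjusted p = 7.42e-05) and Fos was 4.29-fold higher (log2 2.10, SE 0.44, adjusted p = 0.000898). Both were called in that fit, against 11.1% of all probesets. With the recipient as a block, Atf3 had an SE of 0.41 and an adjusted p of 0.000137, and Fos 0.33 and 0.000686. Egr1 was 2.25-fold, Jun 1.87-fold, Ier2 1.73-fold and Junb 1.54-fold higher, and Dusp1 was 1.48-fold lower. The number that passed was 7 whichever heart was left out and with the recipient as a block. In this comparison all 9 cardiomyocyte markers were lower in allografts, with a sum of 109 to 262 array medians against 675 to 971 in native BN hearts. All 7 monocyte and macrophage markers were higher (211 to 357 against 21.3 to 35.5), as were 7 of 9 T cell markers (19.8 to 43.4 against 5.27 to 7.76). Of 6 fibroblast markers 4 were higher and 2 lower (23.9 to 226 against 59.8 to 89.3). Their part in the members' values was not tested. The second Fos probeset lay below the array median in every heart and was lower in 4 of 5 allografts, and with both averaged Fos did not pass (adjusted p = 0.106). Against native DA hearts, of the donor strain and without pairing, Atf3 passed as higher in allografts and Dusp1 as lower by the brightest probesets. Their log2 differences were 3.46 (adjusted p = 0.000110) and -1.44 (adjusted p = 1.83e-05). The members' median log2 difference was 0.11, beside -0.12 over all probesets, and the share of all probesets that passed is not given. The weaker Sik1 probeset, described below, was also higher there (log2 3.09, adjusted p = 3.59e-06). Fos (log2 0.70), Jun (0.49), Junb (0.42), Ier2 (-0.27) and Egr1 (-0.048) did not pass there, with adjusted p of 0.105 to 0.921. The recipients differ in strain in that comparison, and the part of cell content was not tested.

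Whether the graft differed from the native heart more in BN than in DA recipients was tested as the difference of the 2 differences, in which 29.7% of all probesets passed. Junb and Ier2 passed and no other member did. For Junb, the AP-1 subunit, the graft was higher than the native heart by a log2 difference of 0.34 to 1.04 in BN recipients and lower by -0.85 to -0.03 in DA recipients. The differences were 1.01 apart (SE 0.28, adjusted p = 0.0156). For Ier2, the graft was higher by 0.58 to 1.02 in each BN recipient, and the difference ran from -0.30 to 0.0038 in DA recipients. The gap was 0.94 (SE 0.39, adjusted p = 0.0977). With the recipient as a block, 4 members passed: Ier2 (adjusted p = 0.00740), Junb (0.0195), Egr1 (0.0628) and Atf3 (0.0769), where the gaps of Egr1 and Atf3 were 0.74 and 1.72. Such a gap is also the log2 difference of allografts from isografts less that of native BN from native DA hearts. These were 0.80 and -0.21 for Junb, -0.12 and -1.06 for Ier2, -0.48 and -1.22 for Egr1, and 1.79 and 0.07 for Atf3. The gaps of Ier2 and Egr1 thus lay mostly in the native hearts. Without the block, Atf3 also passed with 0.25 array medians added (adjusted p = 0.0207) and when only probesets that met the signal criterion for a call were tested (0.0811). For Jun the gap was 0.01 on the log2 scale (SE 0.36), with 0.90 in BN and 0.89 in DA recipients. Without the block, Ier2 no longer passed when any of 12 of the 18 hearts was left out, with adjusted p up to 0.193, whereas Junb passed in all 18 omissions.

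**Figure D3:**
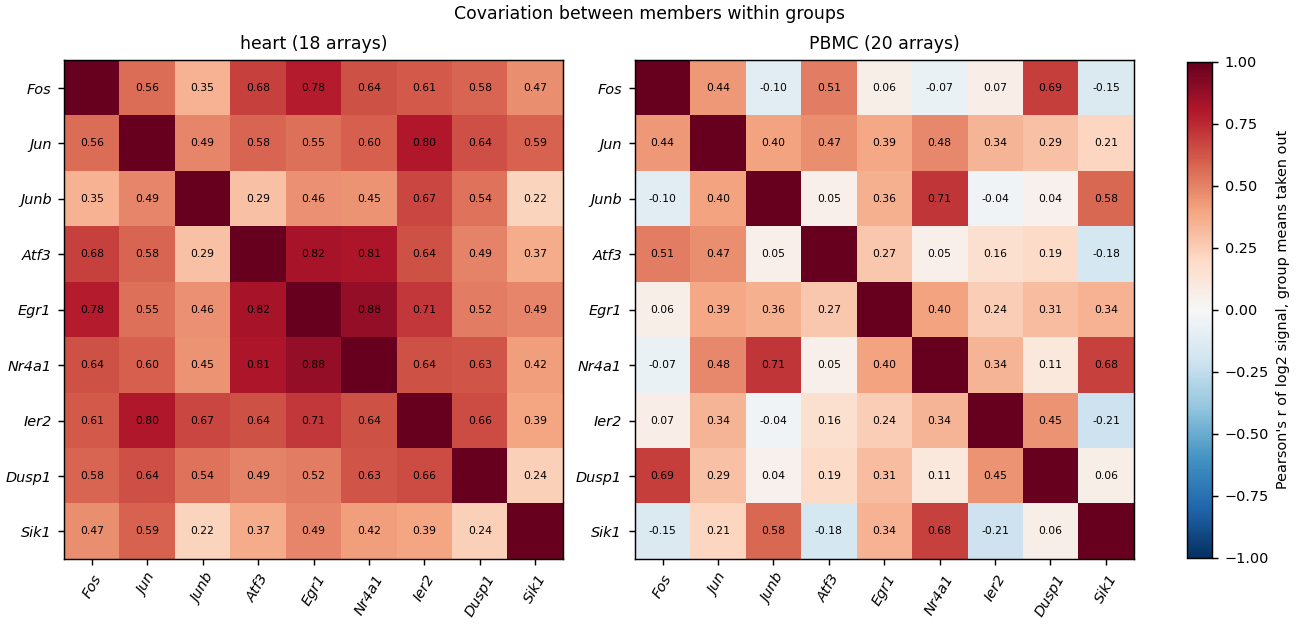
Pearson correlation of log2 signal between members after group means were taken out, over 18 heart arrays and 20 PBMC arrays. In hearts all 36 pairs were above 0 and Egr1 with Nr4a1 was highest at 0.88, while in PBMC 30 of 36 were above 0.

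Within the heart groups the members varied together. After group means were taken out, all 36 pairs of the 9 genes correlated above 0 over the 18 hearts, with a median Pearson's r of 0.58 and a range of 0.22 to 0.88, and 23 pairs were at least 0.50. Over all pairs of the 6066 genes with a mean signal at or above the array median, the median r was 0.11, 62.9% of pairs were above 0 and 11.2% were at least 0.50. Egr1 and Nr4a1, whose windows share exact matches only to the TGACG core among the motifs searched, formed the closest pair at 0.88. Atf3 with Egr1 reached 0.82, Atf3 with Nr4a1 0.81 and Jun with Ier2 0.80. Sik1 and Junb were the loosest members, with medians of 0.41 and 0.46 to the other 8 genes. Dusp1, though it fell between groups where Atf3 and Junb rose, correlated above 0 with every other member, at a median of 0.56. These points share arrays and hearts of the same animals, so that they describe these hearts and are not a test.

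DA recipients 9 and 11 carried part of this pattern. Egr1 in the native hearts of animals 9, 11, 12 and 13 was 9.18, 11.6, 3.79 and 3.98 array medians, and in their isografts 10.1, 12.4, 7.54 and 5.60. Nr4a1, an orphan receptor induced in many cell types by calcium and cAMP, had 3.35, 4.88, 1.80 and 1.42 in those native hearts and 2.73, 3.71, 1.41 and 1.18 in the isografts. The same 2 animals were thus highest in both of their hearts for Egr1, Nr4a1 and Ier2. Without both hearts of these animals, 35 of 36 pairs were above 0 over 14 hearts, with a median r of 0.41 beside 0.11 over all genes, and 10 pairs (27.8%) were at least 0.50, beside 14.1% of all pairs.

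Among genes outside the set, those whose log2 signal followed the mean of the 9 members most closely over all 18 hearts were Dgkq (r = 0.81), Ccn1, Sgk1, Rhob and Rtn4 (0.80 each). With group means taken out they were Klf2 (0.84), Cbx1 (0.83), Klf4 (0.81), Mta1 (0.79) and Cebpb (0.78). Ccn1, Sgk1, Rhob, Klf2, Klf4 and Cebpb are themselves known as quickly induced genes.

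**Figure D4:**
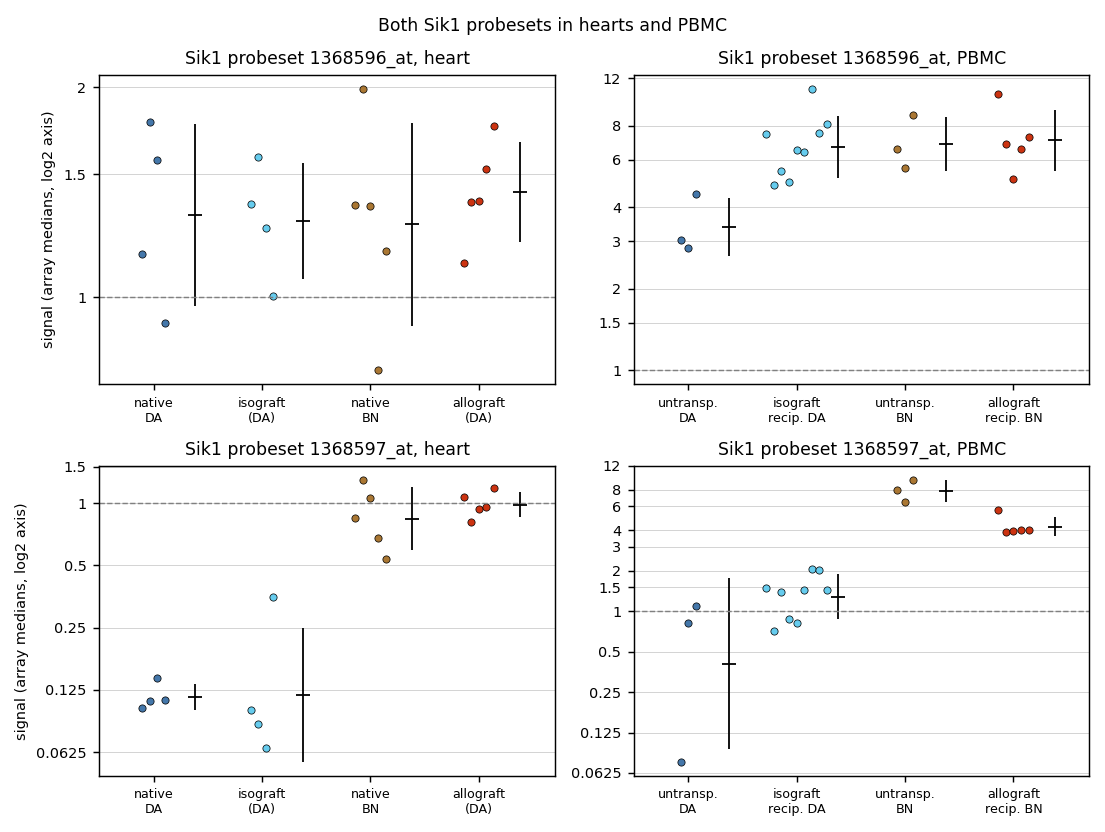
Signal of the 2 Sik1 probesets in all 38 samples, in array medians on a log2 axis, with one point per sample, the mean and SD of log2 signal beside each group, and a dashed line at the array median. The upper panels (brighter probeset) show overlapping heart groups, whereas in the lower panels native BN hearts and allografts lie at 0.534 to 1.29 and native DA hearts and isografts at 0.0655 to 0.352.

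Sik1, listed under its former symbol Snf1lk on these arrays, is a kinase induced by cAMP that restrains CREB-driven transcription. Its 2 probesets disagreed. The brighter one lay between 0.785 and 1.99 array medians in all 18 hearts with no separation of groups, with log2 differences of -0.04 for strain, 0.14 for rejection and -0.03 for surgery, none of which passed. The weaker one separated the hearts without overlap. It stood at 0.102, 0.110, 0.143 and 0.111 array medians in native DA hearts 9, 11, 12 and 13 and at 0.0997, 0.0858, 0.0655 and 0.352 in their isografts. In native BN hearts 3 to 7 it was 0.842, 1.29, 1.06, 0.676 and 0.534, and in allografts 3 to 7, which are DA tissue in BN animals, 1.07, 0.809, 0.933, 0.957 and 1.18. Samples from BN animals were thus near the array median whatever the strain of the heart, and samples from DA animals were far below it. The probeset was 7.25-fold higher in native hearts of BN animals than in those of DA animals (log2 2.86, SE 0.37, adjusted p = 0.000469) and 8.30-fold higher in allografts than in isografts (log2 3.05, SE 0.37, adjusted p = 6.42e-06). Isografts and native DA hearts differed by a log2 of 0.03. It was not called in either comparison, because 2 of 5 native BN hearts and 2 of 5 allografts reached the array median. With 0.25 array medians added to every signal, the differences were smaller, at a log2 of 1.58 and 1.68, and both passed. With both probesets averaged, the strain difference of Sik1 turned from -0.04 to 1.41 and passed (adjusted p = 0.00529), and the difference between allografts and isografts was 1.60 and passed (adjusted p = 5.30e-05).

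The same probeset separated the strains in blood. In untransplanted BN rats 1 to 3 it had 7.99, 6.47 and 9.35 array medians and in untransplanted DA rats 0.0760, 0.812 and 1.09. The BN animals were all higher than the DA animals, by 19.3-fold (log2 4.27, SE 0.66, adjusted p = 0.000606). It was called, against 1.05% of all probesets. Without untransplanted DA rat 1, whose signal was lowest, the log2 difference was 3.06. In recipients of allografts 3 to 7 (BN) it had 5.62, 3.87, 3.91, 4.03 and 3.99, and in the 9 recipients of isografts (DA) it ran from 0.715 to 2.04 with a median of 1.43. This was a 3.32-fold difference (log2 1.73, SE 0.45, adjusted p = 0.0156), called against 1.04% of all probesets. The gap between strains was smaller in recipients by a log2 of -2.54 (SE 0.80), which did not pass (adjusted p = 0.331), and by -1.33 without untransplanted DA rat 1. With only the untransplanted animals in the fit the strain difference did not pass (adjusted p = 0.125).

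**Figure D5:**
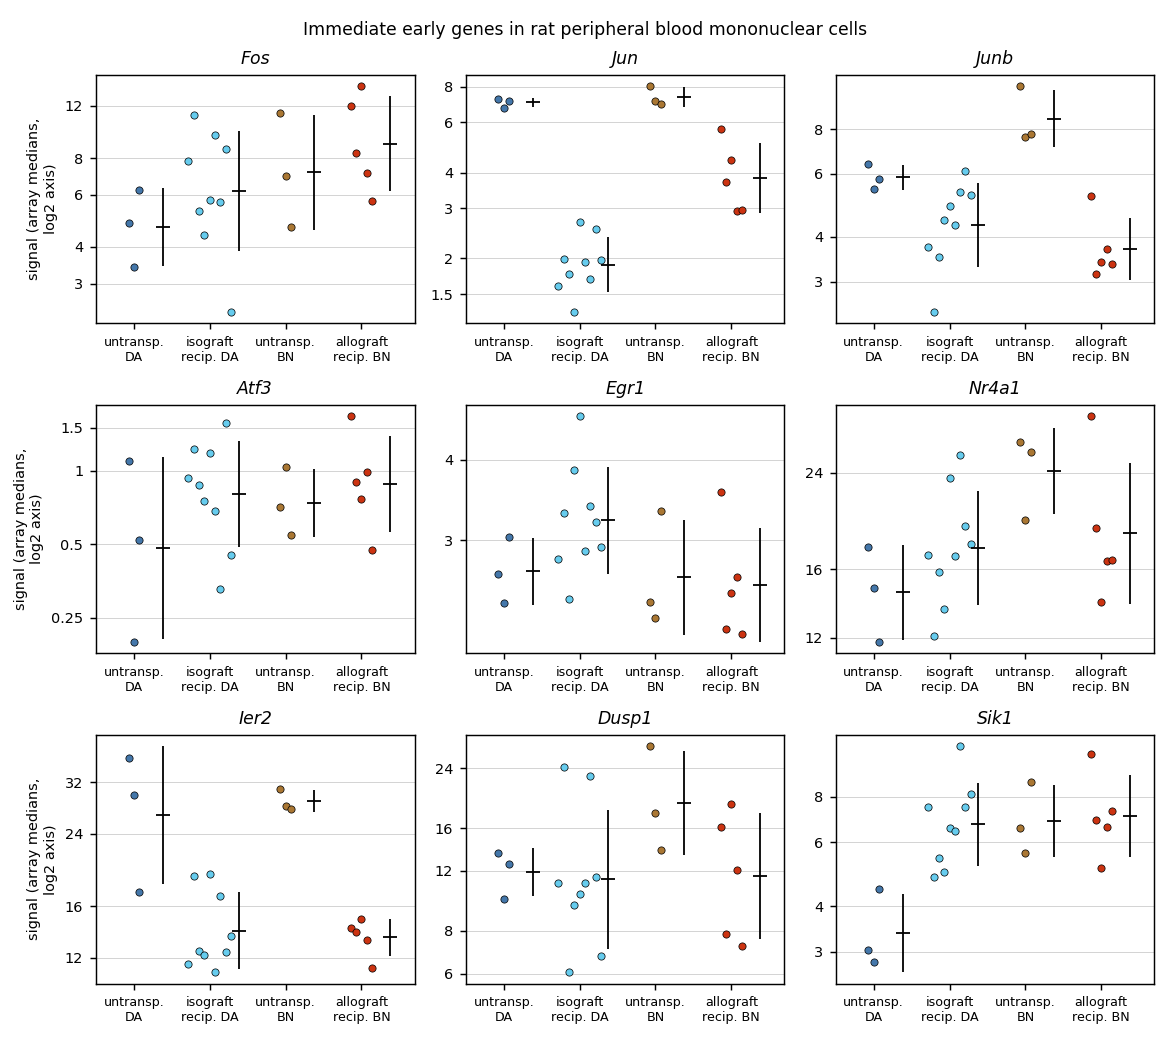
Signal of the 9 measured genes in each of the 20 PBMC samples, in array medians on a log2 axis, with one point per animal and the mean and SD of log2 signal beside each group. Jun was at 6.75 to 8.05 in the 6 untransplanted rats, 2.93 to 5.70 in the 5 BN recipients and 1.30 to 2.67 in the 9 DA recipients.

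In PBMC, the strain effect was measured between untransplanted BN and DA rats. By its brighter probeset Sik1 was the only member of 9 that passed, against 8.45% of all probesets. The median log2 difference of the members was 0.61, beside -0.08 over all probesets. Sik1 had 6.58, 5.60 and 8.79 array medians in untransplanted BN rats 1 to 3 and 3.04, 2.82 and 4.47 in untransplanted DA rats 1 to 3. The groups did not overlap and the difference was 2.04-fold (log2 1.03, SE 0.30, adjusted p = 0.0539). It did not pass without BN rat 1 or 3 or DA rat 1 or 2, with adjusted p up to 0.214, nor with only these 6 animals in the fit (0.135). Nr4a1 had 27.3, 19.7 and 26.2 in BN rats and 17.5, 14.8 and 11.8 in DA rats, a 1.66-fold difference that did not pass (adjusted p = 0.168) but passed after quantile normalization (adjusted p = 0.0522), with signals as deposited (0.0463) and when only probesets that met the signal criterion were tested (0.0890). The other 7 genes did not pass. Among them, Junb had 7.63 to 10.6 array medians in BN rats and 5.44 to 6.38 in DA rats. Dusp1 had 13.9 to 27.8 in BN rats and 9.92 to 13.5 in DA rats, and by its weaker probeset the strains overlapped. Of 10 T cell markers 6 were lower, and of 6 natural killer cell markers 5 were lower in BN rats, with T cell sums of 490 to 542 against 867 to 916 array medians, and 6 of 9 monocyte and macrophage markers were higher. Their part in the Sik1 difference was not tested. Of 37 other early response genes 3 passed, all higher in BN rats: Pim1, a survival kinase (4.65-fold), Cebpd (2.21-fold) and Ier5 (1.37-fold).

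Between BN recipients of allografts and DA recipients of isografts, where strain and rejection act together, Jun was the only member that passed by its brightest probeset, against 18.6% of all probesets. The median log2 difference of the members was 0.08, beside -0.03 over all probesets. Jun had 5.70, 3.71, 4.43, 2.93 and 2.95 array medians in BN recipients 3 to 7, all above the 9 DA recipients, which ran from 1.30 to 2.67 with a median of 1.94. It was 2.01-fold higher in BN recipients (log2 1.01, SE 0.18, adjusted p = 0.000677), and passed when any 1 of the 14 animals was left out. A second Jun probeset was 1.51-fold higher (adjusted p = 0.0220), and the third was 1.40-fold higher and did not pass (adjusted p = 0.150). In untransplanted animals Jun did not separate the strains, at 8.05, 7.10 and 6.93 in BN and 7.27, 6.75 and 7.12 in DA rats. The test of the difference between both strain comparisons gave a log2 of 0.95 (SE 0.31) for Jun, -0.76 (SE 0.33) for Junb and -0.95 (SE 0.36) for Sik1. By limma none of the 9 genes passed it, where 0.348% of all probesets did, and 3 had an unadjusted p under 0.05 (adjusted p of 0.367, 0.542 and 0.474). The cell content of the blood samples differed too. In BN recipients, 9 of 10 T cell markers were lower, with a sum of 215 to 375 against 350 to 591 array medians, all 5 red cell markers were lower (17.2 to 77.0 against 53.8 to 313), and 4 of 6 granulocyte markers were higher and 1 lower (69.5 to 221 against 15.7 to 73.1). Of 4 B cell markers 3 were higher, and of 9 monocyte and macrophage markers 5 were higher and 1 lower. Of 4 platelet markers 1 was higher and 3 lower, and of 6 natural killer cell markers 3 were lower. The part of these cells in the Jun difference was not tested. Of 37 other early response genes 6 were higher and 5 lower in BN recipients, with Errfi1 lower by a log2 of -2.17, Gadd45g 2.15-fold higher and Cebpd 1.89-fold higher.

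Set against untransplanted animals of their own strain, which also differ by batch, BN recipients had lower Junb, Ier2 and Jun and DA recipients lower Jun and Ier2 and higher Sik1. The share of all probesets that passed was 41.8% in BN animals, with 29.5% lower in recipients, and 47.2% in DA animals. Ier2 had 30.9, 28.1 and 27.5 array medians in untransplanted BN rats and 14.2, 13.9, 14.9, 13.3 and 11.3 in BN recipients, and was 2.14-fold lower in recipients (adjusted p = 0.00175). In DA animals Ier2 had 36.6, 29.7 and 17.3 in untransplanted rats and 11.1 to 19.2 in recipients, 1.90-fold lower (adjusted p = 0.00204). Jun was 1.92-fold lower in BN recipients (adjusted p = 0.00478) and 3.71-fold lower in DA recipients (adjusted p = 2.50e-05), where it was called against 2.12% of all probesets. A second Jun probeset differed by a log2 of only -0.10 in BN recipients and did not pass (adjusted p = 0.753). In DA recipients it was 1.66-fold lower (adjusted p = 0.00701). The third was 2.00-fold lower in BN recipients (adjusted p = 0.0101) and 2.58-fold lower in DA recipients (adjusted p = 0.000480). Junb was 2.31-fold lower in BN recipients (adjusted p = 0.00145), with 10.6, 7.63 and 7.77 in untransplanted BN rats and at most 5.22 in recipients. After quantile normalization Jun did not pass in BN animals (adjusted p = 0.179) and Ier2 did not pass in DA animals (adjusted p = 0.229), whereas Sik1 passed as higher in BN recipients too, with a log2 of 0.60 instead of 0.04 (adjusted p = 0.0787). The signals as deposited moved the median of all probesets by 0.48 and 0.51 on the log2 scale in these 2 comparisons. The actin 3' to 5' ratio was 1.08 to 1.18 in untransplanted animals and 1.31 to 2.75 in recipients. T cell markers were lower in recipients of both strains (9 of 10) and red cell markers higher (4 of 5). B cell markers were lower too, 4 of 4 in BN and 3 of 4 in DA recipients, and granulocyte markers higher, 4 of 6 and 3 of 6. Of 9 monocyte and macrophage markers, 3 were higher and 1 lower in BN recipients, and 6 higher and 2 lower in DA recipients. The part of batch, RNA quality and cell content in these differences was not tested.

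In PBMC the correlations between members were no higher than those between all genes. Of 36 pairs 30 correlated above 0 with group means taken out, with a median r of 0.28, beside 0.31 over all pairs of 8836 genes. An r of at least 0.50 was reached by 5 of the 36 pairs (13.9%), beside 28.5% of all pairs. Nr4a1 with Junb (0.71), Dusp1 with Fos (0.69) and Nr4a1 with Sik1 (0.68) were the closest pairs. Genes outside the set that followed the members' mean most closely over all 20 samples were Syngr2 and Grn (0.85 each), Mapkapk3 (0.84), Pitpnm1 and Il10ra (0.83 each). With group means taken out they were Mvb12a (0.86), Snx27 (0.84), Renbp and Tbc1d8 (0.83 each) and Vsir (0.82).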

How the data were processed

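Total RNA from heart tissue was measured on Affymetrix RAE230A arrays and that from PBMC on RAE230 2.0 arrays. The authors quantified MAS5 signal intensities with Affymetrix GeneChip software, and the deposited intensities were used without further correction. Present calls were not used here. Each array was divided by its median over non-control probesets and log2 transformed. Group means of the 4 groups of a tissue were fitted with limma 3.58.1 in R 4.3.3, with empirical Bayes variances and Benjamini-Hochberg adjustment over all probesets of the array type, in place of the analysis of variance in the authors' methods. The criterion was an adjusted p up to 0.10. A call also needed a 3-fold difference and a signal of 1 array median or more on 50% of the arrays of one group, which stands in for the present call. The number of arrays limits the precision of every value. Where nothing states that animals were housed or sampled apart, p-values of the main PBMC fit measure the spread between these animals. The main heart fit took the native heart and the graft of a recipient as separate samples, so its p-values measure the spread between hearts. With the recipient as a block, they measure the spread of the difference between graft and native heart. Probesets were named through the platform annotation, with symbols updated to current ones. The fits were tested on simulated data.

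All 9 measured members are described, and from each other list up to 3 genes with the largest differences that passed. The members and the lists of other early response genes, regulators and cell type markers were chosen with earlier results of these data known. Native and transplanted hearts with one number come from one recipient, as their titles state, and the correlation of their deviations from group means was -0.045 to 0.118. Alternatives were quantile normalization, signals as deposited, 0.25 array medians added, a signal filter, ordinary variances, the mean of a gene's probesets, only the groups compared, the replicate block and omission of each array. The comparison of graft-minus-native differences, the weaker Sik1 probeset as a result of its own, the covariation without DA recipients 9 and 11, and the alternatives run on the comparisons of allografts with native BN hearts and of recipients with untransplanted rats were chosen after seeing the data.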

Additional observations from a re-analysis of the deposited data

Results flagged for a closer look

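Of 84 groups of 4 to 10 samples in which 1 value could stand apart, 4 had such a value, where chance gives about 1 in 20. Jun by 1 of its 3 probesets was lowest in native DA heart 13, at 1.94 array medians against 2.62 to 2.75 in the other 3. Junb was highest in allograft 4, at 8.87 against 4.77 to 5.54 in the other 4. Fos by its weaker probeset was lowest in the PBMC of isograft recipient 9, at 0.0686 against 0.371 to 0.886 in the other 8. Sik1 by its weaker probeset was highest in the PBMC of allograft recipient 3, at 5.62 against 3.87 to 4.03 in the other 4.

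The graft-minus-native difference differed between BN and DA recipients for Ier2 (by 0.94 on the log2 scale) and for Junb (by 1.01).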

How the results depend on the processing

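For members, 54 values were recomputed under 983 alternatives in all: 890 kept their direction and their side of the threshold, 53 no longer passed, 22 passed only then and 18 changed sign, of which 1 passed. These values had an unadjusted limma p under 0.05, with or without a replicate block, or belonged to Sik1. The 46 other member values had 855 alternatives: 779 kept direction and side, 11 passed only then and 65 changed sign, of which 1 passed. The number of members that passed in allografts against isografts (3) was 3 under every alternative run, although Sik1 passed in place of Dusp1 with the mean of a gene's probesets, as it also did for strain in hearts, and that in the difference between both blood comparisons was 0. The cause of the changes that follow was not tested.

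With only the groups compared in the fit, members that passed went from 3 to 1 for strain in hearts (with 278 of all probesets), from 2 to 1 for isografts against native DA hearts (with 1449), and from 1 to 0 for strain in PBMC (with 1523). With the mean of a gene's probesets they went from 2 to 0 for isografts against native DA hearts and from 1 to 2 for recipients of allografts against recipients of isografts, with Sik1 gained (log2 0.90, adjusted p = 0.0472). With ordinary variances the difference of graft-minus-native differences had 1 member and with the recipient as a block 4, instead of 2. For strain in PBMC, quantile normalization, signals as deposited and the signal filter each gave 2. Signals as deposited gave 7 instead of 3 members for recipients of isografts against untransplanted DA rats. They moved the median of all probesets by 0.16 for strain in PBMC and 0.13 between recipients, in log2. Quantile normalization gave 8557 instead of 12982 and 9151 instead of 14667 probesets for recipients against untransplanted BN and DA rats. Beyond the values given with the results, the signal filter brought Fos past the test for strain in hearts (adjusted p = 0.0635).

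Untransplanted BN and DA rats share only a number (correlation of deviations 0.0030 to 0.037), and with that number as a replicate block 0 members and 0 of all probesets passed, against 1 and 2622 without it. With the recipient as a block, the number of members was 3 instead of 2 for isografts against native DA hearts, and for the difference of graft-minus-native differences it was 4 instead of 2, with Egr1 and Atf3 gained. No member's side of the threshold changed for allografts against native BN hearts.

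With 1 array left out, members that passed ranged from 0 to 3 for strain in hearts (0 without native DA heart 11), from 0 to 3 for isografts against native DA hearts (0 without native DA heart 13), from 1 to 3 for the difference of graft-minus-native differences, and from 0 to 1 for strain in PBMC. They ranged from 1 to 2 between recipients (2 without allograft recipient 3), and from 3 to 4 in both comparisons with untransplanted rats. Without untransplanted DA rat 1, the weaker Sik1 probeset did not pass in DA recipients against untransplanted DA rats (log2 0.44 instead of 1.65, adjusted p = 0.334).

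With the mean of a gene's probesets, Sik1 was 1.41 for strain in hearts, 0.0015 for isografts against native DA hearts (0.0063 with signals as deposited) and -0.42 for BN recipients against untransplanted BN rats, and the gap between recipients in the graft-minus-native difference of Fos was -0.067 instead of 1.24 (adjusted p = 0.204). With 1 array left out, Sik1 ranged from -0.22 to 0.13 for strain in hearts, from -0.20 to 0.12 for isografts against native DA hearts, from -0.021 to 0.314 for allografts against native BN hearts, from -0.065 to 0.195 between recipients and from -0.10 to 0.22 for BN recipients against untransplanted BN rats. Its weaker probeset ranged from -0.49 to 0.32 for isografts against native DA hearts and from -0.089 to 0.719 for the difference of graft-minus-native differences. Probesets below the array median, such as the second ones of Sik1 and Fos in hearts, lie closest to background, which limits the precision of their ratios.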
